A study of Homo sapiens with 48 samples.

Results

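PI3-kinase signalling was followed at the transcript level in K562 cells, an established human leukaemia line with the fusion kinase BCR-ABL1. The genes described here were chosen by symbol, as 9 genes of the PI3-kinase branch. They are the docking adaptors IRS1, IRS2, GAB1 and GAB2, the PI3-kinase subunits PIK3CA, PIK3CD and PIK3R1, the kinase AKT1 and the lipid phosphatase INPP5D. All probe sets whose only annotated symbol was among these were taken, and those annotated to several symbols were not. This gave 14 probe sets for 8 of the 9 genes, out of 22215 probe sets and 11963 genes tested. PIK3CA was not analysed here.

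The treated cells had been kept for 24 hours in 1 micromolar imatinib, an inhibitor of the ABL kinase, and the others had been mock treated. The series holds 48 arrays in 8 sets lettered A to H, each with 3 imatinib and 3 mock samples. What a letter marks is not given in the labels, nor whether replicates were grown as separate cultures. The p-values therefore speak only of the spread among the arrays at hand, and part of it may be technical. All cells are of the same line. RNA of the imatinib samples was purified with an RNeasy kit alone and RNA of the mock samples with Trizol and the same kit, and the spike-in controls were added at a lower amount to the imatinib samples; treatment and RNA preparation therefore cannot be told apart in any set. Of 13 markers of K562 cells and their erythroid lineage 11 were measured, and the brightest probe set of all 11 reached at least the median of probe set levels, as did 3 of 8 T cell, 3 of 6 B cell, 0 of 7 monocyte and granulocyte, and 4 of 7 fibroblast and epithelial markers.

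In this pathway, activated tyrosine kinases phosphorylate docking adaptors, which then bind the regulatory subunit of PI3-kinase and bring its catalytic subunit to the membrane. The kinase makes the lipid PIP3, which recruits AKT, and AKT in turn restrains FOXO transcription factors and favours growth through mTOR. INPP5D, also called SHIP1, is an enzyme found mainly in blood cells that removes a phosphate from PIP3. BCR-ABL1 is known to feed into this branch through adaptors that include GRB2 and GAB2.

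The regulatory subunit gene PIK3R1 had the largest change among these genes, and it was higher after imatinib in every set. Its brightest probe set (212240_s_at) averaged 8.33 in imatinib samples and 6.28 in mock samples on the log2 scale, a 4.15-fold higher level. In RNA from whole cultures, a changed share of cells with a transcript and a changed level per cell cannot be told apart. The adaptor gene GAB2 and the kinase gene AKT1 were the genes that fell, by 0.59 and by 0.28 log2, while IRS2, GAB1 and INPP5D rose by less than 0.5 log2. Of the 14 probe sets, 10 were higher and 2 were lower at a limma adjusted p under 0.05, against 39.3% and 25.8% of all probe sets. Several of them share a gene, and with the brightest probe set of each gene 4 of the 8 genes were higher and 2 lower, against 41.6% and 27.1% of all genes. The combined fit called 65.2% of all probe sets and 68.7% of all genes, so that a call alone does not set a gene apart here. The median change of the 14 probe sets was 0.231 log2, against 0.0461 over all probe sets, and that of the 8 genes was 0.114, against 0.0526 over all genes. PIK3R1 212240_s_at was the only member probe set changed at least 2-fold, and it rose, against 3.63% of all probe sets in either direction, 1.49% upward and 2.14% downward.

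**Figure D1:**
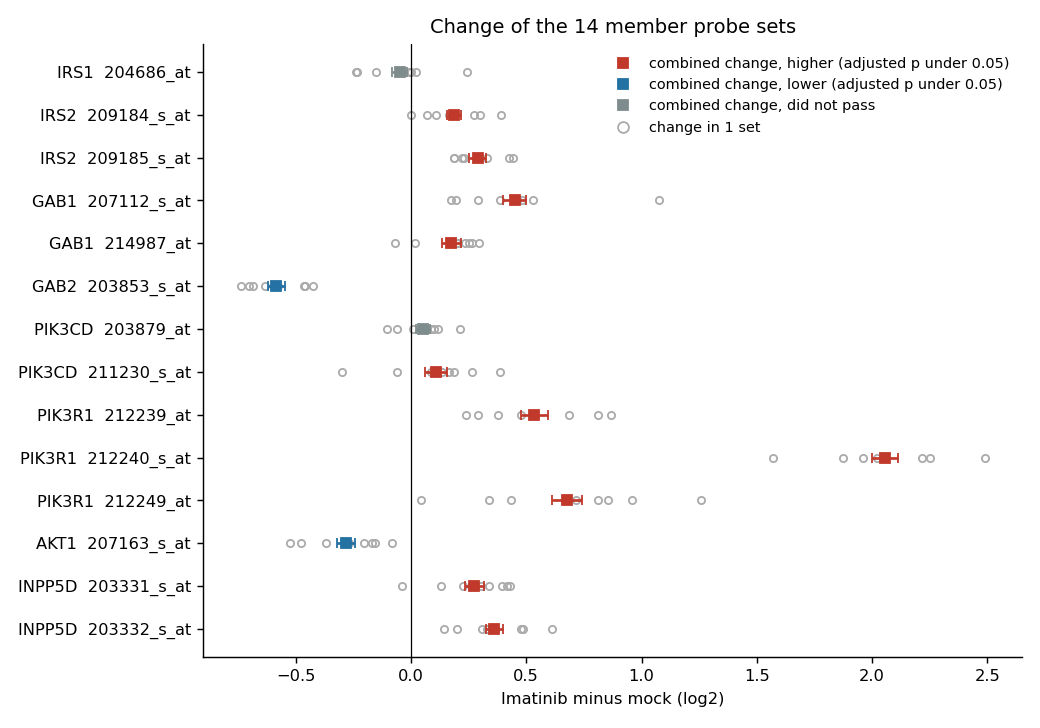
Log2 change, imatinib minus mock, of the 14 member probe sets (rows). Squares with bars are the combined change over the 8 sets and its standard error (24 imatinib and 24 mock samples), and open circles are the changes in single sets. PIK3R1 212240_s_at lies far to the right of the others, with set values from 1.57 to 2.49, and all 8 circles of GAB2 and of AKT1 lie to the left of 0.

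Sequences around the annotated start sites are shown for PIK3R1, the gene that rose most, and GAB2, the gene that fell most. Both genes have more than 1 annotated start, and these arrays do not tell which of them was in use. The windows run from 250 bases before a start site to 50 after it, 5′ to 3′ on the strand of the gene, in RefSeq sequence of build GRCh38.p14. RefSeq windows were matched for 8 of the 9 genes, 15 windows in all. PIK3R1 lies on chromosome 5 at 68215756 to 68301821 on the plus strand, and GAB2 on chromosome 11 at 78215293 to 78417820 on the minus strand. The first of the 4 PIK3R1 windows lies at chr5:68215506-68215805 and the second at chr5:68288269-68288568. The GAB2 windows lie at chr11:78417771-78418070 and chr11:78341870-78342169. Capitals mark a match to the GATA motif searched, AGATAA or its reverse complement.
PIK3R1 window 1: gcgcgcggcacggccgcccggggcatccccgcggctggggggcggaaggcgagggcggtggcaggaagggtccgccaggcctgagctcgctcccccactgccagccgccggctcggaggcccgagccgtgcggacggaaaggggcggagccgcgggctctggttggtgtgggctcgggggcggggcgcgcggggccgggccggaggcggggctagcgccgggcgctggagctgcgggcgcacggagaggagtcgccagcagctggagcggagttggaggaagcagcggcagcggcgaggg
PIK3R1 window 2: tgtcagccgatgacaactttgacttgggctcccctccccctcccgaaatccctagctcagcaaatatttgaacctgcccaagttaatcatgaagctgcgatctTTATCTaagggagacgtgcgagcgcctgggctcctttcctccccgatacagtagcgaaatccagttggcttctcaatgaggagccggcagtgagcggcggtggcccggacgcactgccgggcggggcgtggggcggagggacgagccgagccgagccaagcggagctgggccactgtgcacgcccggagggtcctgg
GAB2 window 1: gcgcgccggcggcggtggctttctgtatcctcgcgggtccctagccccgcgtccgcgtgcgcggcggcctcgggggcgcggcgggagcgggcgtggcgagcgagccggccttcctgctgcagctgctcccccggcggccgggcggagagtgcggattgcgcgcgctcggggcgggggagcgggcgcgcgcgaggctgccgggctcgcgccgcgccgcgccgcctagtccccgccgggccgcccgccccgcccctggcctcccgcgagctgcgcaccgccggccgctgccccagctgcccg
GAB2 window 2: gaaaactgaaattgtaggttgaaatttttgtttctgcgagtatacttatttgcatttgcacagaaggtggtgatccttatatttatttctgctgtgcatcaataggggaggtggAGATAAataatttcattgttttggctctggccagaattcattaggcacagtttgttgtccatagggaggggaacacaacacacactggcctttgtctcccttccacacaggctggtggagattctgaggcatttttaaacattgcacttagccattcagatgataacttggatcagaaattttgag

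All 15 windows were searched on both strands for 4 motifs, which overlapped nowhere in them. They were the FOXO motif GTAAACA, the STAT motif TTCNNNGAA, the GATA motif AGATAA and the E-box CACGTG. Of 35116 windows of all annotated starts, 3.42% held the FOXO motif, 7.66% the STAT motif, 10.3% the GATA motif and 7.26% the E-box. In the genes measured here, the GATA letters were found in PIK3R1 window 2, at -147 to -142 from the start site on the minus strand, in GAB2 window 2 at -136 to -131, and in a window of PIK3CD. The E-box letters were found in IRS1. A match of letters is a description of the window and was tied to no measurement.

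The docking adaptors went different ways. GAB2, the adaptor that links GRB2 to PI3-kinase, fell in all 8 sets. Its only probe set, 203853_s_at, averaged 7.62 in imatinib samples and 8.20 in mock samples, so it fell by 0.59 ± 0.04 log2 (SE, n = 24 per treatment, limma adjusted p = 3.8e-19), and mock samples had 1.5-fold the level of imatinib samples. In set A the imatinib samples had GAB2 levels of 7.32, 7.43 and 7.56, against 7.81, 8.01 and 7.87 in the mock samples. In set B they had 8.36, 8.43 and 8.42 with imatinib, against 9.10, 9.12 and 9.10 with mock treatment. Every treated sample of both sets lay under every mock sample. In set C the levels were 7.06, 7.19 and 7.04 with imatinib and 7.71, 7.78 and 7.85 with mock treatment. In set D they were 6.87, 7.25 and 7.47 with imatinib and 8.02, 7.70 and 8.08 with mock treatment, the widest replicate spread of GAB2. In set E imatinib samples read 7.75, 7.50 and 7.61, against 7.95, 8.13 and 8.07 in mock samples. In these sets, too, the treatments did not overlap. Set F gave 7.20, 7.10 and 7.36 with imatinib and 7.79, 7.89 and 7.72 without. Set G gave 8.19, 8.20 and 8.10 with imatinib and 8.80, 8.89 and 8.70 without. Set H gave 7.73, 7.92 and 7.71 with imatinib and 8.29, 8.26 and 8.18 without. The groups were thus separate in 8 of 8 sets, as for 8.6% of all probe sets in the downward direction. GAB2 was also called lower in each set fitted alone, as were 6.57% of all probe sets, with changes between -0.74 in set D and -0.43 in set E. In set E the call was lost without imatinib replicate 3 (limma adjusted p = 0.0535), mock replicate 2 (0.0707) or mock replicate 3 (0.0526), with changes of -0.42, -0.39 and -0.42.

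GAB1, the relative of GAB2 that acts downstream of many receptor tyrosine kinases, was higher after imatinib. Its brightest probe set (214987_at) averaged 6.37 in imatinib samples and 6.19 in mock samples, a rise of 0.17 ± 0.04 log2 (SE, n = 24 per treatment, limma adjusted p = 0.000372). The other probe set (207112_s_at) averaged 6.25 with imatinib and 5.80 with mock treatment and rose by 0.45 ± 0.05 (limma adjusted p = 9.91e-11). The mean of both probe sets rose by 0.31 (limma adjusted p = 2.37e-09), well above the change of the brightest alone. Both probe sets lay under the median level of all probe sets. With 214987_at the groups overlapped in 4 of 8 sets, and the change in set A was -0.07. With 207112_s_at they overlapped in set A only, where imatinib samples read 5.13, 5.26 and 5.44 and mock samples 5.23, 4.88 and 5.20. Set G had the widest gap for that probe set, with 7.29, 7.24 and 7.40 in imatinib samples against 6.18, 6.11 and 6.40 in mock samples. The set changes of 207112_s_at ran from 0.17 in set A to 1.08 in set G, and they differed between sets (limma F test of the set-by-treatment terms, adjusted p = 0.000325). For 214987_at no such difference was called (adjusted p = 0.501), and set G had 0.24. Fitted set by set, 207112_s_at was called in 5 sets and 214987_at in 2, sets B and D. The call of 214987_at in set B was lost with centred arrays (limma adjusted p = 0.12) and after quantile normalization (0.104). Its call in set D was lost without imatinib replicate 2 (limma adjusted p = 0.0511). Both calls were also lost in other runs.

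IRS2, a docking adaptor of insulin and cytokine receptors, rose modestly with both of its probe sets. The brightest (209185_s_at) averaged 7.85 in imatinib samples and 7.56 in mock samples, a rise of 0.29 ± 0.04 log2 (SE, n = 24 per treatment, limma adjusted p = 6.99e-10). The other (209184_s_at) averaged 7.22 with imatinib and 7.03 with mock treatment, a rise of 0.19 ± 0.03 (limma adjusted p = 1.15e-06). In set F, where the change of 209185_s_at was largest at 0.44, imatinib samples had 7.88, 7.86 and 7.74 and mock samples 7.33, 7.38 and 7.44. In set C, where it was smallest at 0.18, imatinib samples had 7.20, 7.39 and 7.001 and mock samples 6.93, 7.08 and 7.02, so that the groups overlapped. Over the 8 sets the groups of 209185_s_at were separate in 6 and those of 209184_s_at in 5, and each probe set was called in 5 sets. For 209184_s_at, 4 of these calls, in sets B, C, E and G, were lost with the replicate number as a block (limma adjusted p = 0.0649, 0.0562, 0.0642 and 0.115), with centred arrays (0.244, 0.182, 0.0757 and 0.0532) and without several single samples. For 209185_s_at, the calls in sets B and H were lost with centred arrays (limma adjusted p = 0.176 and 0.0659) and without several single samples. Its call in set G was lost without imatinib replicate 2 (limma adjusted p = 0.0546). Both probe sets were positive in all 8 sets, as were 19.8% of all probe sets, although the change of 209184_s_at in set A was 0.0001.

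IRS1, the other adaptor of that family, did not pass. Its only probe set (204686_at) averaged 4.67 in imatinib samples and 4.72 in mock samples, a difference of -0.05 log2 with a 95% interval from -0.117 to 0.0175 (limma adjusted p = 0.187). It was dim, between the 7.3 and the 18.3 percentile of all probe sets in the 8 sets, so that a change of its transcript could be missed. With arrays centred on their median the difference was -0.09 and passed (limma adjusted p = 0.0271), as it did after quantile normalization within sets, with -0.08 (limma adjusted p = 0.0445). Without set E it also passed, with -0.09 (limma adjusted p = 0.0147). The changes in single sets ran from -0.24 in set C to 0.24 in set E and differed between sets (adjusted p = 0.0312), while none was called. In set E imatinib samples had 4.28, 4.29 and 4.31 and mock samples 4.07, 4.08 and 4.001. In set C imatinib samples had 4.29, 4.34 and 4.15 and mock samples 4.33, 4.62 and 4.57. Imatinib samples lay above all mock samples in set E and overlapped with them in set C. They lay below all mock samples in sets B and G, with changes of -0.15 and -0.23. In set D the samples had 4.89, 4.91 and 4.90 with imatinib and 4.90, 4.90 and 4.90 with mock treatment.

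**Figure D2:**
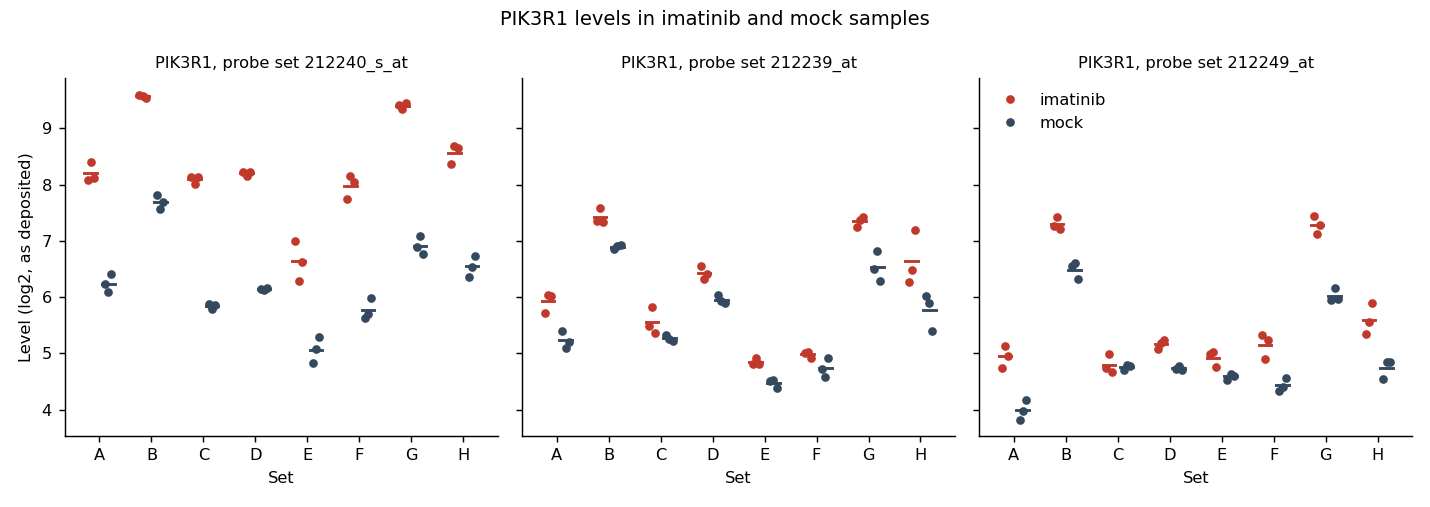
Log2 level of the 3 PIK3R1 probe sets in every sample, by set (A to H); points are samples, 3 per group, and lines their means, with imatinib to the left of mock. With 212240_s_at every imatinib sample lies above every mock sample of its set, by set differences of 1.57 to 2.49; the gaps are smaller with 212239_at and 212249_at, and the groups overlap in set F and set C, each for 1 probe set.

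Among the PI3-kinase subunits, PIK3R1 encodes the regulatory subunit p85 alpha and shorter forms from later start sites. These proteins stabilise the catalytic subunit and hold it inactive until they bind phosphorylated tyrosines. With probe set 212240_s_at, set A had 8.08, 8.40 and 8.12 in imatinib samples, against 6.23, 6.08 and 6.41 in mock samples. Set B had 9.60, 9.57 and 9.53 in imatinib samples, against 7.82, 7.56 and 7.68 in mock samples. Set C had 8.14, 8.01 and 8.13 in imatinib samples, against 5.88, 5.78 and 5.86 in mock samples. The replicates of these groups lay far closer to each other than to the other treatment. Set D had 8.22, 8.15 and 8.22 with imatinib, against 6.14, 6.13 and 6.17 without. Set E had 6.997, 6.29 and 6.62 with imatinib, against 4.83, 5.08 and 5.28 without. Set F had 7.74, 8.15 and 8.05 with imatinib, against 5.62, 5.69 and 5.99 without. Set E held the widest replicate spread of this probe set (SD 0.355 with imatinib and 0.229 with mock treatment, n = 3 each) and also the smallest difference. Set G had 9.41, 9.34 and 9.46 in imatinib samples, against 6.88, 7.09 and 6.76 in mock samples. Set H had 8.36, 8.69 and 8.64 in imatinib samples, against 6.36, 6.54 and 6.73 in mock samples. The lowest imatinib sample of each set thus lay above the highest mock sample of that set, as for 5.43% of all probe sets in the upward direction.

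The combined change of PIK3R1 212240_s_at was 2.05 ± 0.06 log2 (SE, n = 24 per treatment, limma adjusted p = 2.21e-33). It was called higher in each set fitted alone, as were 3.94% of all probe sets, with adjusted p-values between 2.28e-08 in set B and 5e-05 in set E. Its size differed between sets (limma F test, adjusted p = 0.02), from 1.57 ± 0.17 in set E to 2.49 ± 0.10 in set G (SE of each set's own fit, n = 3 per group). The other probe sets of PIK3R1 gave smaller values. 212239_at averaged 6.14 in imatinib samples and 5.61 in mock samples and rose by 0.53 ± 0.06 (limma adjusted p = 4.76e-11). 212249_at averaged 5.65 in imatinib samples and 4.97 in mock samples and rose by 0.68 ± 0.07 (limma adjusted p = 1.32e-12). Both were dimmer and lay under the median level of all probe sets. In each of the 8 sets, 212240_s_at changed by more than both others, whose set changes reached at most 0.87 and 1.26. The mean of the 3 probe sets rose by 1.09 (limma adjusted p = 6.8e-26), well below the brightest alone. Which transcripts of PIK3R1 each probe set detects was not analysed here.

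The 2 dimmer PIK3R1 probe sets did not follow the same order of sets. In set C, 212249_at had 4.74, 4.998 and 4.67 in imatinib samples and 4.71, 4.79 and 4.77 in mock samples, a difference of 0.04 that was not called (adjusted p = 0.729). In the same set 212240_s_at had a difference of 2.25 and 212239_at had 0.29. In set G, 212249_at had 7.44, 7.12 and 7.29 in imatinib samples and 5.94, 6.17 and 5.97 in mock samples, a difference of 1.26. The size of the 212249_at change differed between sets (limma F test, adjusted p = 5.84e-05), whereas for 212239_at, with set changes from 0.24 to 0.87, no difference was called (adjusted p = 0.165).

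PIK3CD encodes p110 delta, the catalytic subunit found mainly in white blood cells, and its probe sets changed by at most 0.11 log2 in the combined fit. Its brightest probe set (203879_at) averaged 7.92 in imatinib samples and 7.87 in mock samples. The difference was 0.05 log2 with a 95% interval from -0.00823 to 0.115, and it did not pass (limma adjusted p = 0.121). In set H, where it was largest at 0.21, imatinib samples had 8.38, 8.43 and 8.33 and mock samples 8.17, 8.10 and 8.23. In set C it was -0.11, with 7.28, 7.40 and 7.34 in imatinib samples and 7.40, 7.51 and 7.43 in mock samples. The other probe set (211230_s_at) averaged 6.65 in imatinib samples and 6.55 in mock samples, and its rise of 0.11 ± 0.05 was near the threshold (limma adjusted p = 0.0443). Its set changes ran from -0.30 in set C to 0.39 in set B. Scaling decided these calls: after quantile normalization within sets 203879_at passed with 0.10 (limma adjusted p = 0.00156) and 211230_s_at did not (limma adjusted p = 0.108), and with centred arrays neither passed (limma adjusted p = 0.713 and 0.178). The mean of both probe sets also passed, with 0.08 (limma adjusted p = 0.0145). Without set C 203879_at passed with 0.08 (limma adjusted p = 0.0418). The call of 211230_s_at was lost without set A, B, D, E, G or H in turn, with limma adjusted p-values from 0.0677 without set A to 0.243 without set B.

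AKT1, the protein kinase that PIP3 brings to the membrane, fell slightly. Its only probe set (207163_s_at) averaged 7.86 in imatinib samples and 8.14 in mock samples and fell by 0.28 ± 0.04 log2 (SE, n = 24 per treatment, limma adjusted p = 1.37e-08), so that mock samples had 1.22-fold the level of imatinib samples. In set C imatinib samples had 7.49, 7.49 and 7.55, against 7.98, 7.97 and 8.01 in mock samples. In set D imatinib samples had 7.87, 8.07 and 7.90, against 8.35, 8.19 and 8.42 in mock samples. In set F imatinib samples had 7.46, 7.18 and 7.22, against 7.85, 7.70 and 7.88 in mock samples. These 3 sets and set G, with 8.49, 8.38 and 8.42 against 8.70, 8.77 and 8.63, were the sets in which AKT1 was called and in which the groups were separate. The call in set G (limma adjusted p = 0.0408) was lost without imatinib replicate 1, 2 or 3 (0.0914, 0.159 and 0.136), without mock replicate 1 (0.0974) and with the replicate number as a block (0.127). In sets A, B, E and H the groups overlapped: set A had 7.57, 7.93 and 7.59 in imatinib samples and 7.74, 7.70 and 8.12 in mock samples. Set B had 8.97, 8.95 and 8.90 with imatinib and 8.95, 9.16 and 9.23 without. Set E had 6.94, 6.79 and 6.65 with imatinib and 6.93, 6.96 and 7.09 without, and set H had 8.17, 8.27 and 8.31 with imatinib and 8.29, 8.41 and 8.29 without. The change was below 0 in all 8 sets, as for 19.2% of all probe sets, and no difference of its size between sets was called (adjusted p = 0.125).

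INPP5D, the lipid phosphatase SHIP1, rose with both probe sets. The brightest (203332_s_at) averaged 7.22 in imatinib samples and 6.86 in mock samples, a rise of 0.36 ± 0.04 log2 or 1.28-fold (SE, n = 24 per treatment, limma adjusted p = 3.98e-12). The other (203331_s_at) averaged 5.95 with imatinib and 5.67 with mock treatment, a rise of 0.27 ± 0.04 (limma adjusted p = 6.12e-08). Fitted set by set, 203332_s_at was called in 5 sets and 203331_s_at in 4, and the groups of 203331_s_at overlapped in 3. The call of 203332_s_at was lost in set F without mock replicate 1 (limma adjusted p = 0.0526) and in set G without imatinib replicate 2 (0.0529). The call of 203331_s_at in set E was lost without imatinib replicate 3 (limma adjusted p = 0.0558). In set C, 203332_s_at had its largest change, 0.61, with 6.60, 6.66 and 6.66 in imatinib samples against 5.94, 6.14 and 5.999 in mock samples. In set H it had its smallest, 0.14, with 7.86, 7.84 and 7.71 in imatinib samples and 7.64, 7.58 and 7.76 in mock samples, and there alone the groups overlapped. The probe sets differed most in set F: 203331_s_at had 5.55, 5.56 and 5.64 in imatinib samples and 5.53, 5.44 and 5.89 in mock samples, a difference of -0.04, whereas 203332_s_at had a change of 0.49.

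**Figure D3:**
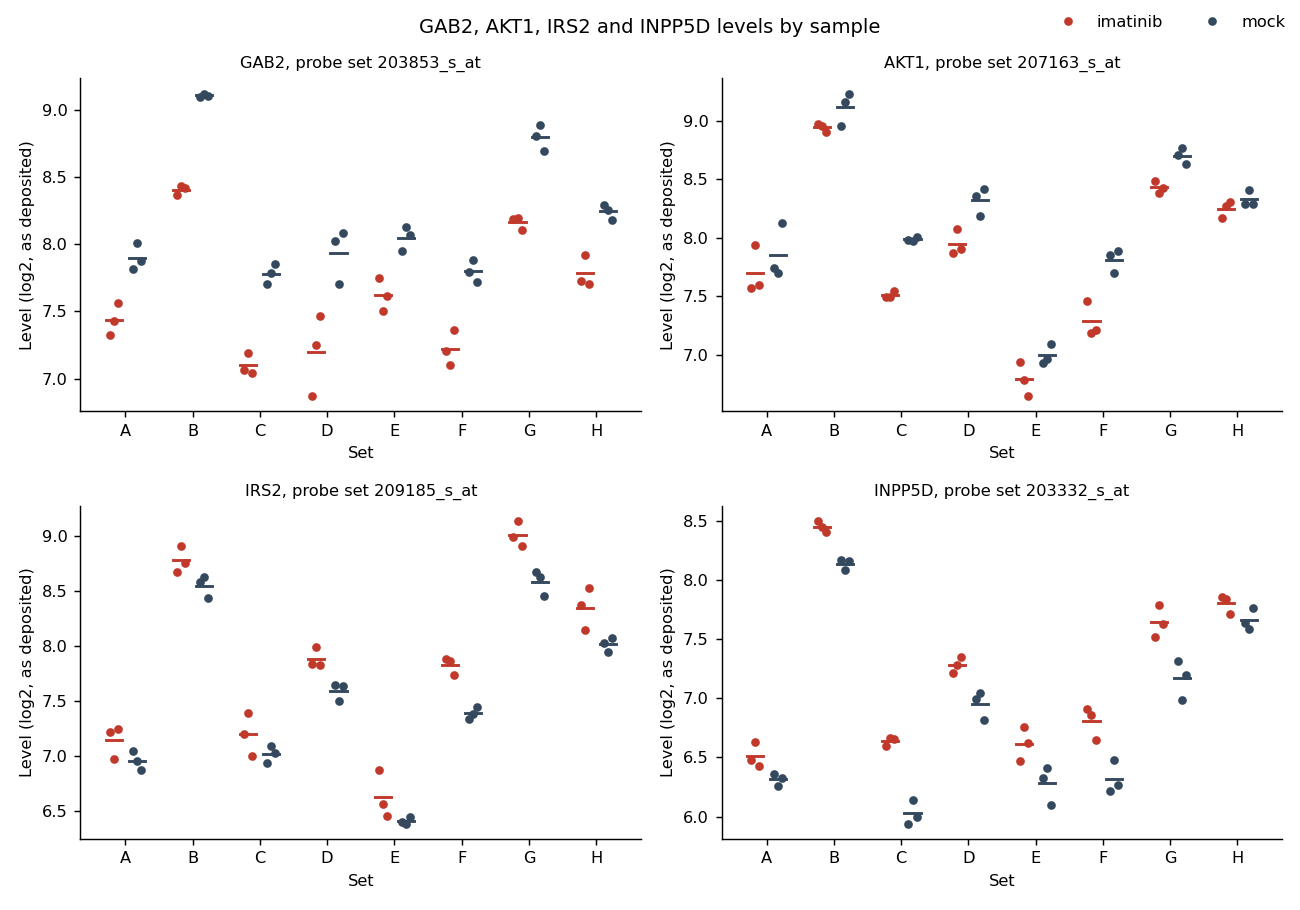
Log2 level of GAB2, AKT1, IRS2 and INPP5D, each with its brightest probe set, in every sample by set (A to H); points are samples, 3 per group, and lines their means, with imatinib to the left of mock. GAB2 samples are lower with imatinib in all 8 sets without overlap, AKT1 samples are separate in 4 sets, IRS2 in 6 and INPP5D in 7; axes start above 0 and differ between panels.

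Fitted set by set, the 14 probe sets gave 61 calls of 112 possible, against 30.2% over all probe sets and sets. Set A called 4 of the 14 (28.3% of all probe sets were called there), set B 11 (47.7%), set C 6 (39%) and set D 12 (38.9%). Set E called 6 (19.4%), set F 6 (16.5%), set G 10 (27.5%) and set H 6 (24.1%). In set E the count was 3 without imatinib replicate 3, 3 without mock replicate 2 and 2 without mock replicate 3. In set G it was 6 without imatinib replicate 2. Over all probe sets, calls in these runs of set E were 3016, 3049 and 3221, against 4307 with every sample. In that run of set G they were 4668, against 6105. The PIK3R1 and GAB2 probe sets 212240_s_at and 203853_s_at were called in every set. IRS1 204686_at and PIK3CD 203879_at were called in none. No probe set was called higher in a set and lower in another. A difference of the change between sets was called for 4 of the 14 probe sets, against 7.2% of all probe sets.

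Genes of the same pathway outside these symbols were taken from 5 lists of 82 genes, of which 69 were measured. Of these, 32 were higher and 24 lower after imatinib, against 41.6% and 27.1% of all genes, with 1 probe set per gene. Their median change was 0.0363 log2, against 0.0526 over all genes. At least 2-fold changed were 4 of the 69, PIK3R3, PIK3CB, TRIB3 and FOXO3, against 4.02% of all genes. With centred arrays 29 were higher and 27 lower, and after quantile normalization 33 and 24.

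The list of other PI3-kinase subunits, which also holds the inhibitor gene PIK3IP1, had changes of both signs: of 9 measured genes, 3 rose and 5 fell, under each scaling, with a median of -0.225. PIK3R3, which encodes the regulatory subunit p55 gamma, averaged 7.34 in imatinib samples and 6.04 in mock samples and rose by 1.31 ± 0.05 log2 (SE, n = 24 per treatment, limma adjusted p = 2.11e-27). Its dimmer probe set rose by 0.37. PIK3IP1, a membrane protein that inhibits PI3-kinase, rose by 0.24 and PIK3R5, a regulatory subunit that pairs with p110 gamma, by 0.15. Without replicate 2 of every group PIK3R5 had 0.08 and did not pass (limma adjusted p = 0.172). The catalytic subunit genes PIK3CB and PIK3CG, for p110 beta and p110 gamma, fell. PIK3CB averaged 7.11 in imatinib samples and 8.21 in mock samples and fell by 1.10 ± 0.07 (limma adjusted p = 8.03e-20), and PIK3CG averaged 6.08 with imatinib and 7.03 with mock treatment and fell by 0.95 ± 0.07 (limma adjusted p = 5.29e-17). Both were called in all 8 sets, and their dimmer probe sets fell by 0.60 and by 0.36. The size of the PIK3CG change differed between sets (limma F test, adjusted p = 0.00149), from -0.49 to -1.65. For PIK3CB no such difference was called (adjusted p = 0.111). PIK3R4, the regulatory partner of the class III kinase, fell by 0.35, and 2 dimmer probe sets of it did not pass.

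Of 15 other adaptors and docking partners 4 rose and 5 fell, with a median of 0.015. GRB2, which links GAB2 to tyrosine kinases, averaged 7.94 in imatinib samples and 8.26 in mock samples and fell by 0.32 ± 0.03 log2 (limma adjusted p = 2.22e-14). VAV1, an exchange factor for Rac in blood cells, fell by 0.44 ± 0.04 (limma adjusted p = 1.16e-12). Both were below 0 in all 8 sets. The size of the VAV1 change differed between sets (limma F test, adjusted p = 0.0243), from -0.15 to -0.76. With the brightest probe set of each gene, no rise of this list had the same sign in all sets. Dimmer probe sets of CRKL and CBLB, which rose by 0.32 and 0.10, were above 0 in all 8 sets. GRB10 did not pass with its brightest probe set (0.02, limma adjusted p = 0.544). Dimmer probe sets of GRB10 fell by 0.65 and 0.54 and were called lower in all 8 sets, while another had -0.08 and did not pass. With centred arrays 3 of this list rose and 7 fell, and after quantile normalization 6 rose and 5 fell.

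Of 17 other phosphatases 8 rose and 5 fell, with a median of 0.022. INPPL1, or SHIP2, the paralog of INPP5D, averaged 8.44 in imatinib samples and 8.09 in mock samples and rose by 0.36 ± 0.03 log2 (limma adjusted p = 2.18e-14). INPP4A, which acts on a product of the SHIP enzymes, rose by 0.24 with its brightest probe set and by 0.95, 0.33 and 0.10 with the others. With the brightest, the size of the INPP4A change differed between sets (limma F test, adjusted p = 0.0436), from 0.02 to 0.50. The catalytic subunit genes of protein phosphatase 2A, PPP2CA and PPP2CB, fell by 0.56 ± 0.05 and by 0.48 ± 0.05 (limma adjusted p = 2.02e-15 and 1.55e-12). A dimmer probe set of PPP2CB had -0.08 and did not pass (limma adjusted p = 0.0512). INPP5A, which acts on soluble inositol phosphates, fell by 0.24. With centred arrays 7 of this list rose and 6 fell.

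Among 14 kinases and regulators around AKT, 7 rose and 5 fell under each scaling, with a median of 0.0408. AKT2, the paralog of AKT1, averaged 6.90 in imatinib samples and 6.30 in mock samples and rose by 0.60 ± 0.05 log2 (limma adjusted p = 1.57e-14), with its dimmer probe sets at rises of 0.45 and 0.15. AKT1 fell over the same samples, as given above. TSC1, part of the complex that restrains RHEB, rose by 0.41, and PDPK1, which phosphorylates AKT, by 0.24. RHEB, the activator of mTOR complex 1, fell by 0.45 ± 0.03 (limma adjusted p = 6.69e-20); 3 of its dimmer probe sets fell and 1 rose by 0.10. SGK1, a kinase related to AKT, fell by 0.56, and TRIB3, a pseudokinase that can bind AKT, fell by 1.73 ± 0.04 (limma adjusted p = 2.61e-36). The size of the TRIB3 change differed between sets (limma F test, adjusted p = 0.0123), from -1.45 to -2.05.

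The list of AKT and mTOR substrates and FOXO genes had 10 rises and 4 falls among 14, against 41.6% and 27.1% of all genes. Its median change was 0.163, against 0.0526 over all genes. Among the rises, RPS6 (0.04) was called in 0 of 8 sets alone, and FOXO3 and EIF4EBP2 were called in all 8. Under either other scaling the list had 9 rises and 4 falls. FOXO3, a transcription factor that AKT keeps out of the nucleus, averaged 8.67 in imatinib samples and 7.54 in mock samples and rose by 1.13 ± 0.03 log2 (limma adjusted p = 1.44e-32). CDKN1B, the cell cycle inhibitor p27, rose by 0.72 ± 0.08 (limma adjusted p = 3.27e-11). The translation repressors EIF4EBP2 and EIF4EBP1 moved apart: EIF4EBP2 averaged 9.45 with imatinib and 8.98 with mock treatment and rose by 0.48 ± 0.03, while EIF4EBP1 averaged 8.79 with imatinib and 9.49 with mock treatment and fell by 0.70 ± 0.03 (limma adjusted p = 1.14e-20 and 2.59e-23). CHUK, a kinase of the NF-kappa-B pathway, fell by 0.52 and was dim.

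**Figure D4:**
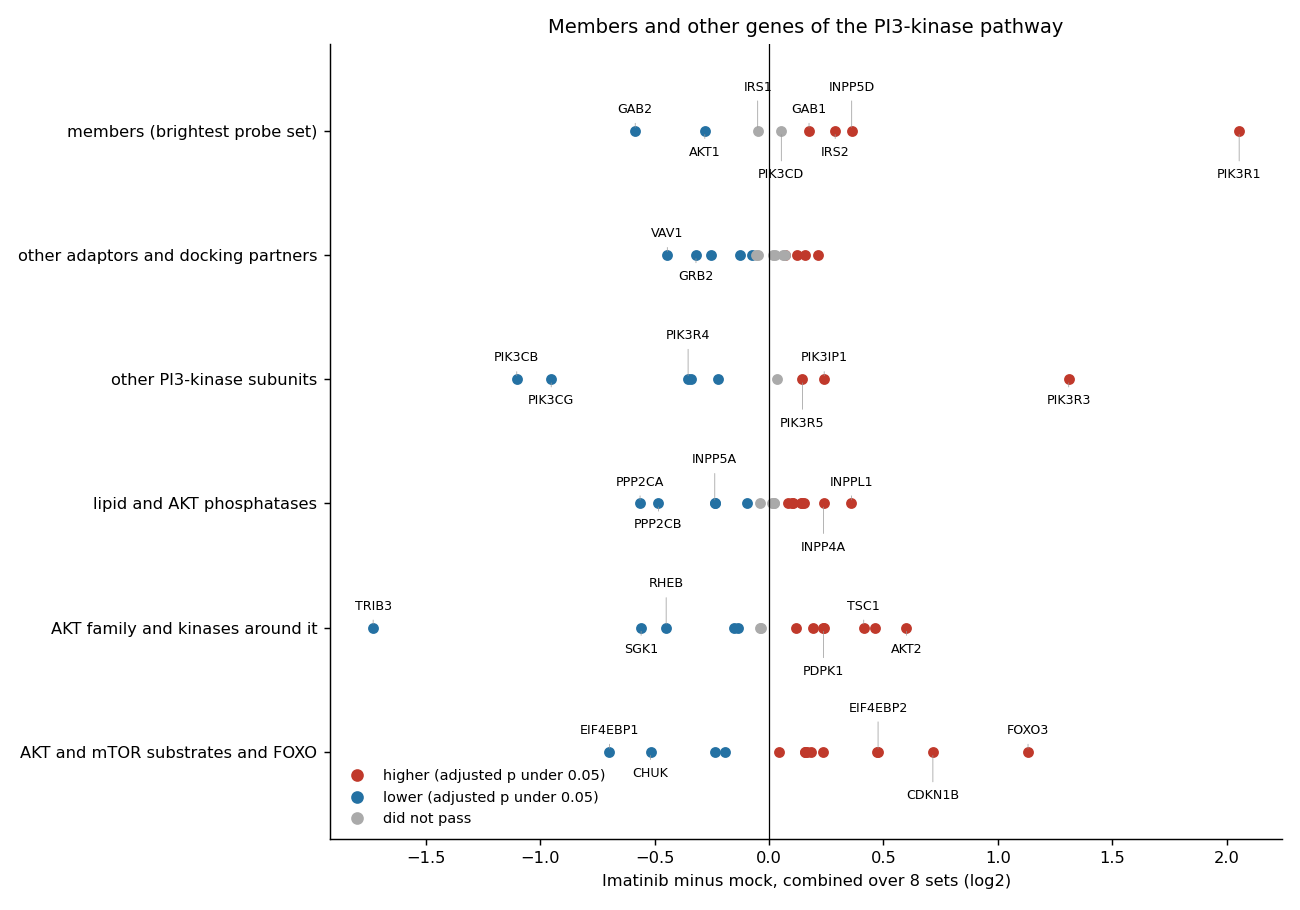
Combined log2 change, imatinib minus mock over 8 sets (24 imatinib and 24 mock samples), of the member genes in the top row and of 69 other pathway genes in 5 rows by role; each point is the brightest probe set of a gene, coloured by its limma call, and the genes named in the text are labelled. PIK3R1 (4.15-fold) and PIK3R3 (1.31 log2) lie farthest to the right, and TRIB3 and PIK3CB, with -1.73 and -1.10, farthest to the left.

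The genes whose levels ran most like those of PIK3R1 and GAB2 were listed over the 48 samples, after each set's mean had been subtracted. For PIK3R1 these were CPQ, ABHD5 and TST, with Pearson correlations of 0.991, 0.988 and 0.988. For GAB2 these were RAI14, NFIL3 and KIF2C, with 0.956, 0.956 and 0.954. All points share the treatment difference: after each group's own mean was removed as well, the correlations were 0.64, 0.5 and 0.47 for PIK3R1 and 0.53, 0.63 and 0.57 for GAB2, in values that share arrays and their scaling. The genes of the targeted fusion were measured too. ABL1 rose by 0.32 ± 0.03 log2 and was called in 7 of 8 sets, and BCR rose by 0.14 ± 0.04 and was called in 2. Without replicate 1 of every group BCR had 0.10 and did not pass (limma adjusted p = 0.0631).

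Markers of other blood and tissue cells were set beside these changes. The T cell list had 2 rises and 1 fall among 8 measured genes, and the B cell list 4 rises among 6. Among 7 genes each, the monocyte and granulocyte list and the fibroblast and epithelial list both had 2 rises and 1 fall. The mean level of the T cell list changed by between -0.307 and 0.0202 log2 over the sets with CD3D, part of the T cell receptor complex, the 1 gene that fell (by 1.73, called in 8 of 8 sets). That of the B cell list changed by between -0.0642 and 0.24, that of the monocyte and granulocyte list by between -0.151 and 0.11, and that of the fibroblast and epithelial list by between -0.0224 and 0.0476. That of the K562 and erythroid list rose by 1.04 to 1.29, with 11 of 11 markers higher. The part of this shift in the changes of PIK3R1, GAB2 and the other genes was not tested.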

How the data were processed

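The authors deposited log2 values of K562 arrays, 1 for each sample at every probe set. How background was corrected and arrays were normalized is not given in the sources used here. The values lay between 2.41 and 14.9. The 68 control probe sets were left out, which left 22215. Of these 19065 had 1 gene symbol, 1043 several and 2107 none, and genes were named only from the first kind. The combined change was fitted with limma 3.58.1 in R 4.3.3 over the 48 samples, with the set as a term. Each set was also fitted alone, and the differences of the change between sets were tested with an F test. P-values were adjusted over all probe sets by Benjamini-Hochberg, with a threshold of 0.05. The fits were tested on simulated data. For lists, each gene had its brightest probe set, and up to 3 genes per direction and list were named, by size among those called with the same sign in all sets. The members and lists were chosen with earlier results of these data known. The number of arrays limits the precision. Alternatives were other scalings, filters, left-out replicates and sets, and a replicate block.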

Additional observations from a re-analysis of the deposited data

Results flagged for a closer look

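The change after imatinib differed between the 8 sets for 4 member probe sets (limma F test of the set-by-treatment terms, adjusted over all probe sets), against 7.2% of all probe sets. The adjusted p was 5.84e-05 for PIK3R1 212249_at, 0.000325 for GAB1 207112_s_at, 0.02 for PIK3R1 212240_s_at and 0.0312 for IRS1 204686_at. Set G had the largest change of the first 3, with 1.26 for PIK3R1 212249_at, 1.08 for GAB1 207112_s_at and 2.49 for PIK3R1 212240_s_at. Set E had the largest rise of IRS1, with 0.24.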

How the results depend on the processing

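No combined change of a member turned its sign under any alternative run. With centred arrays 9 member probe sets were higher and 3 lower, and after quantile normalization 10 and 3. Of all calls 48.3% and 56.2% were then upward, against 60.4% as deposited. These are shares of calls, and the shares of all probe sets called under the 2 scalings are not given here. With only probe sets at or above the median level, which keeps 8 members by construction, 5 were higher and 2 lower. Of all 11108 probe sets kept, 9019 were called, 4535 of them upward. Within sets 38 pairs of member probe set and set were called. Set A called 2, set B 6, set D 7 and set G 6 members, and shares of all probe sets per set under this filter are not given here. The change differed between sets for 1 member and for 957 of all probe sets. Leaving out 1 sample at a time gave 2 to 8 calls in set E and 6 to 10 in set G. Calls over all probe sets then ran from 2995 to 7371 in set E and from 4493 to 7103 in set G. The labels do not say whether replicate numbers pair samples. Of 24 same-number correlations 7 were over 0.1 (median 0.0161, range -0.515 to 0.488). With 3 samples per group these cannot settle whether samples were paired in single sets. With a replicate block 9 members were higher, 2 lower and 57 pairs called, and PIK3CD 211230_s_at lost its call (limma adjusted p = 0.0551). Shares of all probe sets called with this block are not given here, so a background for these counts is missing. Of the 61 calls within sets, 18 were lost under at least 1 alternative, with 80 losses in all, 31 of them of IRS2 209184_s_at, and 31 gains. Uncalled changes within sets, all small, turned sign 31 times over 13 values, and the cause was not tested. With centred arrays these were IRS2 209184_s_at in set A (-0.0156), PIK3CD 203879_at in set B (-0.0689), PIK3R1 212249_at in set C (-0.0151) and IRS1 204686_at in sets D (-0.0662), F (0.0096) and H (-0.0098). After quantile normalization they were IRS2 209184_s_at in set A (-0.0153), PIK3CD 203879_at in set C (0.0046), PIK3R1 212249_at in set C (-0.000521) and IRS1 204686_at in set D (-0.0463). With 1 sample left out at a time, those that turned ran over these ranges: IRS1 204686_at in set A (-0.111 to 0.0303), IRS2 209184_s_at in set A (-0.083 to 0.0556), PIK3CD 203879_at in set B (-0.0158 to 0.0393), PIK3R1 212249_at in set C (-0.0542 to 0.112), the change of IRS1 204686_at in set D (-0.000858 to 0.00494), PIK3CD 203879_at in set E (-0.126 to 0.0287), the change of IRS1 204686_at in set F (-0.027 to 0.00947), GAB1 214987_at in set F (-0.0572 to 0.134), PIK3CD 203879_at in set F (-0.0231 to 0.141), PIK3CD 211230_s_at in set F (-0.173 to 0.0154), the change of INPP5D 203331_s_at in set F (-0.128 to 0.0937) and IRS1 204686_at in set H (-0.0208 to 0.0821). Dim probe sets, among them those of IRS1 and GAB1, limit what small changes could be seen.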
